A study of Mus musculus with 12 samples.

Results

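The results concern 1 experiment of a mouse kidney study, the response to ischemia and reperfusion (I/R) in animals labelled Lrrk2-/-, in which I/R kidneys are set against sham kidneys. Its members are the 6 RNA sequencing libraries of that genotype, 3 labelled KO I/R and 3 labelled KO sham, of 12 in the whole series. KO I/R kidneys had 30 min of ischemia at 37 °C, on the left side through the flank, and the opposite kidney was removed. KO sham kidneys had the same surgery, removal of the opposite kidney included, without the ischemia, so the loss of 1 kidney is common to both groups. The other 6 libraries, WT I/R and WT sham, had the same treatments and give the wild-type response beside the knockout one. They also share the filter, scaling and spread estimate of the fit behind the knockout calls. With only the 6 knockout libraries in the fit, 364 genes were called in place of 1185. The sources used here do not give the reperfusion time, the sex and age of the animals, or the allele and tissue scope of the deletion. The labels do not say whether the 3 libraries of a group came from separate animals. The p-values measure a spread between libraries, pooled over the 4 groups of the series. Knockout libraries lay at a median of 0.378 to 0.677 log2 from the mean of the other 2 in their group. In wild type these values were 0.193 to 0.322, so the pooled spread is not that of the knockout libraries alone.

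Lrrk2 encodes leucine-rich repeat kinase 2, a large kinase and GTPase that phosphorylates Rab GTPases and acts on lysosomes and vesicle traffic, and the kidney is among the organs where it is most abundant. In ischemic kidney the proximal tubule, which depends on oxidative metabolism, is known to be the segment most at risk: its cells lose transporters and metabolic enzymes, and surviving cells switch on injury genes such as Havcr1 and Lcn2 and rebuild their cytoskeleton. Neutrophils and other leukocytes enter the tissue in the same period. In whole kidney RNA, fewer cells of a type and less RNA per cell cannot be told apart, which holds for every result given here.

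KO I/R 1, 2 and 3 held 5134580, 4713434 and 4801171 counts over the table, and KO sham 1, 2 and 3 held 5417038, 4965805 and 5194406. Lrrk2 itself had 401, 235 and 793 counts in KO I/R 1 to 3 and 598, 1651 and 207 counts in KO sham 1 to 3, with 320 to 464 in WT I/R and 1284 to 2053 in WT sham. Which part of the gene was deleted is not stated, so these reads do not check the genotype, and the names KO I/R and KO sham carry the label only. The count column of KO I/R 2 did not match its own FPKM column: 936 genes had FPKM above 0 and a count of 0, and 533 had the reverse, while no other library had such a gene. KO sham 3 stood apart in its mitochondrially encoded reads, 24.7% of its counts against 5.64% to 8.08% in the other 5 knockout libraries. A further 23.7% of its counts fell in 4 nuclear copies of mitochondrial genes, against 6.51% to 7.95% in those 5. Weights that limma's voom gave to the libraries were lowest for these 2, at 0.190 in KO I/R 2 and 0.171 in KO sham 3, with 0.800 to 2.37 in the other 10. A call is therefore described as kept where the gene passed the test in the same direction with all libraries, without KO I/R 2, without KO sham 3, and without both. KO sham 1 had the highest sham levels of several injury genes, and values without it are given beside those genes.

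Among 5048 genes tested with edgeR's quasi-likelihood test, 603 rose and 582 fell in KO I/R against KO sham at a Benjamini-Hochberg adjusted p under 0.05, which is 11.9% and 11.5% of the genes tested (23.5% in both directions). Calls were kept for 379 genes that rose and 325 that fell, 7.51% and 6.44% of the genes tested. Changes of at least 8-fold were estimated for 62 genes that rose and 90 that fell. No gene called in 1 direction was called in the other in any of the alternative fits. The libraries of the 2 groups did not overlap for 1784 genes, 35.3% of those tested, whether or not they passed the test. Limma on log2 FPKM, which uses the FPKM column of KO I/R 2, gave 816 rises and 457 falls (64.1% of its calls rose, against 50.9% with counts).

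**Figure D1:**
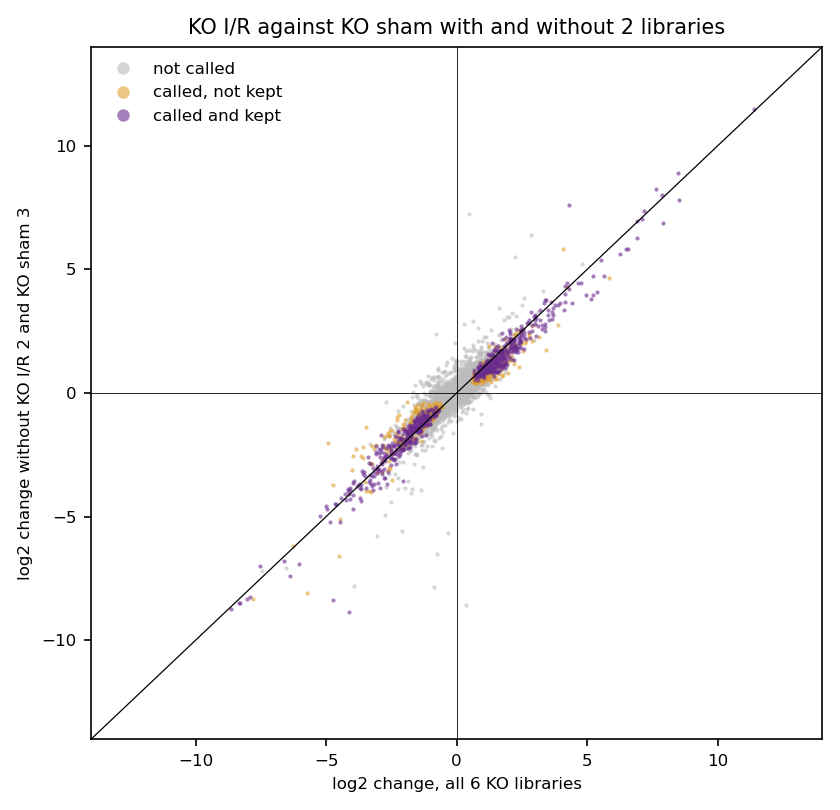
Log2 change in KO I/R against KO sham of 5045 genes with all 6 knockout libraries (horizontal axis) and without KO I/R 2 and KO sham 3 (vertical axis); purple points are calls that were kept, orange points calls that were not, and the diagonal marks equal values. The 704 kept calls lie in the upper right and lower left parts, which the rule for a kept call requires. No called gene changed sign without the 2 libraries, and both axes share the remaining knockout libraries.

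Most tested genes of tubular injury and repair rose. The list has 55 genes, of which the table holds 13. Every list was only partly in the table, so counts cover the members tested and not whole sets. Of 13 list members tested, 10 rose, 0 fell and 3 did not pass, and all 10 calls were kept, at a list median of 3.66 on the log2 scale against -0.08 over all genes. Lcn2 encodes neutrophil gelatinase-associated lipocalin, an iron-binding protein that injured tubules and neutrophils secrete. It was at 10222, 20484 and 5007 CPM in KO I/R 1 to 3, against 124, 6.58 and 16.9 CPM in KO sham 1 to 3. Lcn2 rose by 7.91 ± 1.10 (log2 ± SE, n = 3 each; adjusted p = 0.000863). Every KO I/R library lay above every KO sham library, which the rule for the largest rises required of the genes it named. Without KO sham 1 the change was 9.9997, and without KO I/R 2 it was 7.27. Havcr1 encodes KIM-1, a phosphatidylserine receptor by which injured proximal tubule cells take up debris. It was at 6293, 8181 and 6843 CPM in KO I/R 1 to 3, against 230.2, 3.29 and 1.07 CPM in KO sham 1 to 3, a rise of 6.50 ± 1.54 (adjusted p = 0.0108). KO I/R levels of Havcr1 were close to each other, while KO sham 1 was far above KO sham 2 and 3, and without KO sham 1 the change was 11.60.

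Clu encodes clusterin, a secreted chaperone. It was at 9901, 13296 and 8398 CPM in KO I/R 1 to 3, against 813, 753 and 572 CPM in KO sham 1 to 3, and rose by 3.89 ± 0.38 (adjusted p = 0.000124), or by 3.99 without KO sham 1. Sox9, a transcription factor of tubule progenitors that returns in repairing cells, was at 85.9, 83 and 116 CPM in KO I/R 1 to 3, against 8.07, 2.9 and 3.22 CPM in KO sham 1 to 3, and rose by 4.29 ± 0.43 (adjusted p = 0.000129). Both genes separated the groups in every library, a condition of the rule for the largest rises, which also named Sox9. For Sox9 the change without KO sham 1 was 4.95. Krt19, a keratin of simple epithelia, was at 182, 539 and 133 CPM in KO I/R 1 to 3, against 25.8, 30.4 and 25.5 CPM in KO sham 1 to 3, and rose by 3.38 ± 0.52 (adjusted p = 0.00141). KO I/R 2 had the highest Krt19 level, and without it the change was 2.54. S100a6, a calcium-binding protein, rose by 3.66 ± 0.52 (adjusted p = 0.00101), or by 2.92 without KO I/R 2. Akap12, a scaffold for protein kinase A, rose by 2.99 ± 0.44 (adjusted p = 0.00119).

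The genes of largest rise included Sult1e1 and Sprr2g. Sult1e1, which encodes the sulfotransferase that inactivates estrogens, had 527, 257 and 190 counts in KO I/R 1 to 3 and none in any KO sham library. With a floor of 3 counts over the sham group, it was at least 326-fold higher in KO I/R (adjusted p = 0.000174), a bound of 192-fold to 401-fold with 1 library left out, lowest without KO sham 1 because fewer reads then set the floor. Sprr2g, a small proline-rich protein of the cornified envelope whose near-identical relatives make its count uncertain, had 640, 779 and 487 counts in KO I/R 1 to 3 and 0, 5 and 0 in KO sham 1 to 3, with an adjusted p of 8.84e-05. Its 5 sham counts were all in KO sham 2. Smpdl3b, a lipid-modifying membrane protein that dampens innate signalling, was at 130.5, 152 and 159 CPM in KO I/R 1 to 3, against 5.16, 1.74 and 2.41 CPM in KO sham 1 to 3, and rose by 5.52 ± 0.41 (adjusted p = 2.82e-05), or by 6.15 without KO sham 1. Krt4, a keratin of stratified epithelium, was at 22, 37.8 and 12.4 CPM in KO I/R 1 to 3, against 0.161, 1.16 and 0 CPM in KO sham 1 to 3 (adjusted p = 0.00151). Of the 12 squamous epithelium genes tested 5 rose and 2 fell, with 4 and 2 calls kept. The shares were 41.7% and 16.7%, against 11.9% and 11.5% over all genes. Pkp3 and Jup, which build desmosomes, rose by 1.29 ± 0.28 and 1.14 ± 0.26 (adjusted p = 0.00747 and 0.00876), while the uroplakin gene Upk1a fell, with a log2 change of -1.57 ± 0.39 (adjusted p = 0.0147; 0.0521 without KO sham 2).

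Of 9 acute phase and coagulation genes tested, 3 rose and 3 fell, and 3 and 2 of these calls were kept. The shares were 33.3% each, against 11.9% and 11.5% over all genes. Without KO I/R 1, KO I/R 3, KO sham 1 or KO sham 2, 1 of the falls was called. The 2 fibrinogen genes in the table led the rises. Fgb, the fibrinogen beta chain, was at 691, 1116 and 913 CPM in KO I/R 1 to 3, against 19.7, 1.35 and 0.805 CPM in KO sham 1 to 3, and rose by 6.90 ± 1.05 (adjusted p = 0.00141). Fgg, the gamma chain, was at 2309, 4754 and 3539 CPM in KO I/R 1 to 3, against 83.4, 19.9 and 6.44 CPM in KO sham 1 to 3, and rose by 6.58 ± 1.03 (adjusted p = 0.00157). For both, KO sham 1 was the highest sham library, and without it the changes were 9.64 and 8.05. F3, tissue factor, the start of the coagulation cascade, rose by 1.82 ± 0.37 (adjusted p = 0.00529). Itih2, a hyaluronan-binding plasma protein, was at 2.04, 0.962 and 0.923 CPM in KO I/R 1 to 3, against 2.74, 45.7 and 24.1 CPM in KO sham 1 to 3, and fell, with a log2 change of -4.17 ± 0.85 (adjusted p = 0.00573; -3.29 without KO sham 2).

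Promoter sequence was available in RefSeq (GRCm38.p6) for 21 of the 30 genes named for the largest rises and falls. The 250 bases before each start were searched on both strands for TGANTCA, the letters of an AP-1 site, and GTTAAT, part of a site of HNF1, a factor of liver and proximal tubule. Among the rises, Fgb, Apoc2, which encodes the cofactor of lipoprotein lipase, Mmp10, which encodes stromelysin-2, a matrix protease, and 1 of the 3 starts listed for Havcr1 held a match. The first 3 of these genes are shown because they rose together and have a match at a single listed start. Among the falls, Itih2, described above, held the AP-1 letters 149 bases before its start. The lines read 5′ to 3′ on the gene's strand, and capitals mark the matched letters.
Fgb, chr3:83049864-83050113 (minus strand), AP-1 and HNF1 letters: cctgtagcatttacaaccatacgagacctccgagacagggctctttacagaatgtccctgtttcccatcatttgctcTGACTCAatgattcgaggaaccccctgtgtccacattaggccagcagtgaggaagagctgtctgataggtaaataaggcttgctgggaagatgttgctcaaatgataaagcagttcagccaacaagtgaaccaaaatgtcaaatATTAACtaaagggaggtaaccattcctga
Apoc2, chr7:19677942-19678191 (minus strand), HNF1 letters: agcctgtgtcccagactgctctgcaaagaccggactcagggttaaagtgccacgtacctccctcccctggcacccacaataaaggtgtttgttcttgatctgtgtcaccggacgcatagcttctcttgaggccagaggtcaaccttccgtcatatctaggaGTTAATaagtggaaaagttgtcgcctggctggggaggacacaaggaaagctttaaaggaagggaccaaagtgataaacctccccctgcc
Mmp10, chr9:7502092-7502341 (plus strand), AP-1 letters: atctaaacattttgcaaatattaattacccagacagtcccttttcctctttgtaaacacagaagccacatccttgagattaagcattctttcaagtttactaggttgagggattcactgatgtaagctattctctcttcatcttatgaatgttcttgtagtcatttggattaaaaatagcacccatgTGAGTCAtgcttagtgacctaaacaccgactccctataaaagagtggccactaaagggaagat
The AP-1 letters started 173 bases before the start of Fgb and 63 bases before that of Mmp10, and the HNF1 letters 29 bases before that of Fgb and 89 bases before that of Apoc2. The letters of AP-1 stood in 7.81% of the 320 promoters of genes that rose and kept the call, 4.56% of the 307 promoters of genes that fell and kept it, 5.06% of the promoters of tested genes and 6.75% of all promoters. For the HNF1 letters these shares were 3.13%, 8.79%, 4.37% and 6.43%. A match describes the letters in this window and no binding. Apoc2 was at 3.89, 40.7 and 17.5 CPM in KO I/R 1 to 3, against 1.29, 0 and 0.537 CPM in KO sham 1 to 3 (adjusted p = 0.00743), with its highest level in KO I/R 2. Mmp10 was at 10.2, 7.7 and 2.22 CPM in KO I/R 1 to 3, against 0.323, 0.193 and 0.537 CPM in KO sham 1 to 3 (adjusted p = 0.00499).

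**Figure D2:**
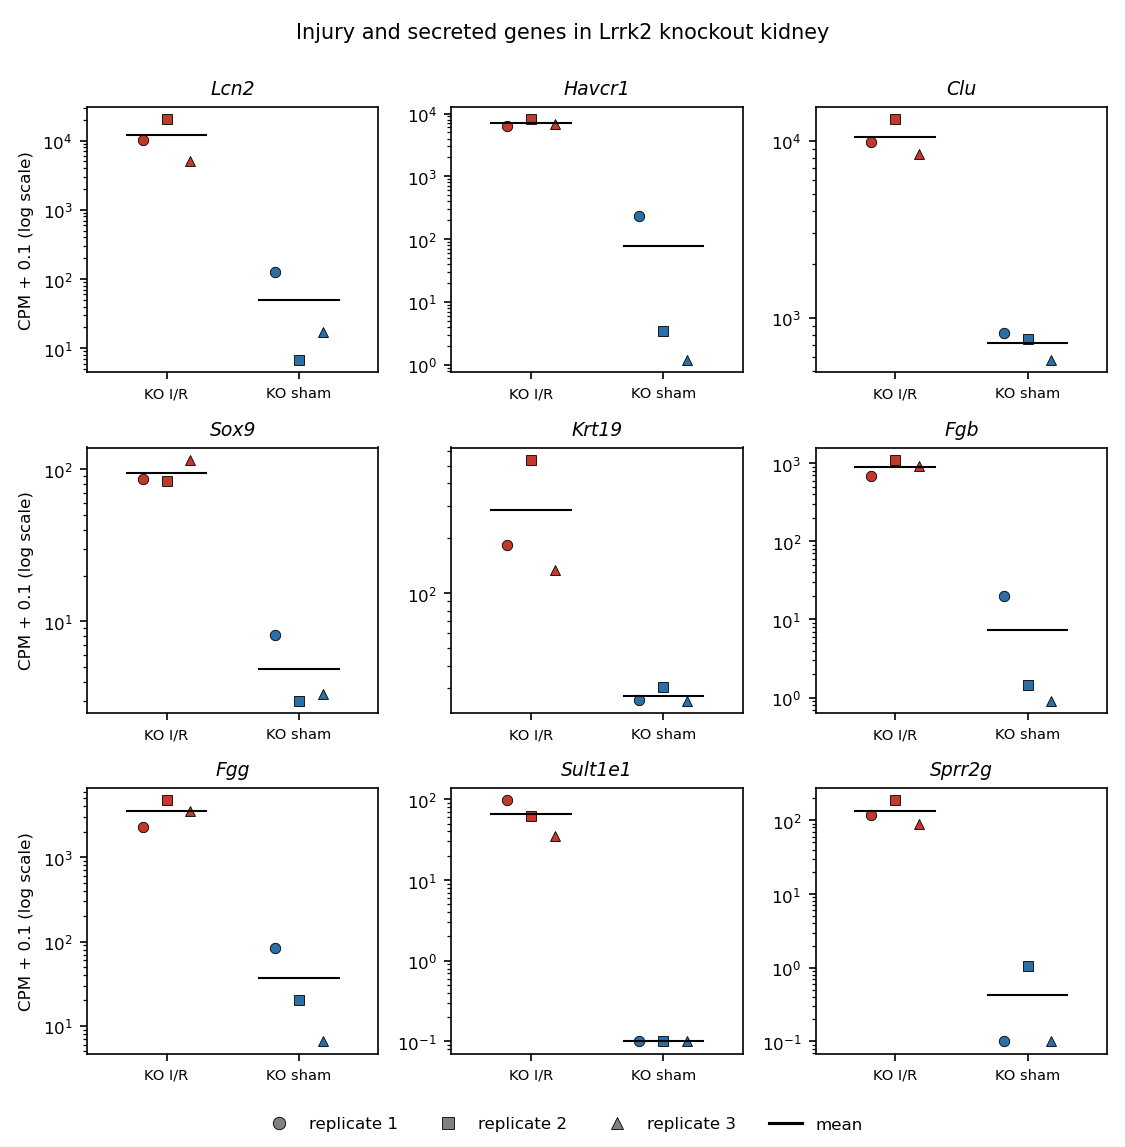
CPM plus 0.1 on a log axis in the 3 KO I/R and 3 KO sham libraries for 9 genes of injury, secretion and squamous epithelium; marks show the replicate and the line is the group mean. In each panel all KO I/R libraries lie above all KO sham libraries, and KO sham 1 is the highest sham library for Lcn2, Havcr1, Clu, Sox9, Fgb and Fgg. The rule for the largest rises, which named Lcn2, Havcr1, Sox9, Fgb, Fgg, Sult1e1 and Sprr2g, required this separation.

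Many genes of gluconeogenesis and amino acid metabolism fell. Of 27 tested, 16 fell, 1 rose and 10 did not pass, and 13 falls were kept, at a median of -1.26 against -0.08 over all genes. Uroc1, urocanase in histidine breakdown, was at 5.74, 4.81 and 6.09 CPM in KO I/R 1 to 3, against 172, 141 and 208 CPM in KO sham 1 to 3. It fell with a log2 change of -4.95 ± 0.27 (adjusted p = 1.61e-06), and no library came near the other group. Gatm, which catalyses the first step of creatine synthesis, was at 77, 46.4 and 151 CPM in KO I/R 1 to 3, against 3079, 1543 and 504 CPM in KO sham 1 to 3. It fell with a log2 change of -4.22 ± 0.73 (adjusted p = 0.00237), and KO sham 1 was the highest library: without it the change was -3.48. Sord, sorbitol dehydrogenase, was at 703, 524 and 944 CPM in KO I/R 1 to 3, against 2466, 4708 and 3054 CPM in KO sham 1 to 3, with a log2 change of -2.24 ± 0.32 (adjusted p = 0.00108). G6pc, glucose-6-phosphatase, which releases glucose, was named after its values were seen. It was at 94.2, 68.3 and 170.2 CPM in KO I/R 1 to 3, against 1450.3, 2139 and 663 CPM in KO sham 1 to 3, with a log2 change of -3.67 ± 0.73 (adjusted p = 0.00509). Enzymes of pyrimidine breakdown in the list, Upb1 and Dpys, had log2 changes of -1.67 ± 0.28 and -2.96 ± 0.51 (adjusted p = 0.00233 and 0.00235), or -2.20 for Dpys without KO sham 2. Etnppl, which breaks down phosphoethanolamine, had a log2 change of -3.92 ± 0.57 (adjusted p = 0.00115). The largest falls outside the lists included Gys2, the liver form of glycogen synthase, at 1.3, 1.68 and 2.4 CPM in KO I/R 1 to 3, against 18.6, 66.9 and 53.4 CPM in KO sham 1 to 3 (log2 change -4.67 ± 0.55, adjusted p = 0.000376).

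Many proximal tubule transporters and uptake genes fell as well. Of 34 tested, 18 fell, 1 rose and 15 did not pass, with 14 falls and the rise kept, at a median of -1.02. Slc34a3, a sodium-phosphate cotransporter of the brush border, was at 16.5, 9.38 and 13.3 CPM in KO I/R 1 to 3, against 268, 244 and 256 CPM in KO sham 1 to 3, with a log2 change of -4.29 ± 0.46 (adjusted p = 0.000174). Its sham levels were nearly equal across libraries and far above the I/R ones. Aqp1, a water channel that proximal tubules and thin descending limbs share, was at 374, 316 and 425 CPM in KO I/R 1 to 3, against 2051, 2966 and 1327 CPM in KO sham 1 to 3, with a log2 change of -2.51 ± 0.33 (adjusted p = 0.000621). Slc5a8, a sodium-coupled monocarboxylate transporter, was at 45.9, 46.9 and 92.3 CPM in KO I/R 1 to 3, against 322, 857 and 371 CPM in KO sham 1 to 3, with a log2 change of -3.06 ± 0.48 (adjusted p = 0.00157). Anpep, a brush border peptidase, Slc7a9, a subunit of the cystine transporter, and Slc39a5, a zinc transporter, had log2 changes of -2.06 ± 0.27, -1.84 ± 0.28 and -2.76 ± 0.46 (adjusted p = 0.000548, 0.00134 and 0.00206). The gene that rose was Cyp27b1, the enzyme that makes active vitamin D. Slc7a12, an amino acid transporter that is higher in female than in male mouse kidney, had 3, 0 and 0 counts in KO I/R 1 to 3 and 1514, 108 and 6 in KO sham 1 to 3 (adjusted p = 0.00746). Its sham level rested on KO sham 1, which also had the fewest reads from the Y chromosome, with 5 there, 34 and 123 in KO sham 2 and 3, and 50 to 157 in the KO I/R libraries. Whether the animals differed in sex was not tested. Summed CPM over the 34 genes was 10800 to 19821 in KO I/R and 26592 to 32609 in KO sham.

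Further along the nephron, part of the collecting duct genes fell. Of 18 tested, 8 fell, 0 rose and 10 did not pass, all 8 calls were kept, and the median was -1.08. Atp6v1b1, a proton pump subunit of intercalated cells, was at 46.3, 50.3 and 71.8 CPM in KO I/R 1 to 3, against 328, 331 and 301 CPM in KO sham 1 to 3, with a log2 change of -2.51 ± 0.24 (adjusted p = 0.000121). Slc4a1, the chloride-bicarbonate exchanger of those cells and of red blood cells, was at 4.63, 7.22 and 12.2 CPM in KO I/R 1 to 3, against 132, 131 and 149 CPM in KO sham 1 to 3, with a log2 change of -4.09 ± 0.44 (adjusted p = 0.000174). The 3 globin genes tested did not pass the test. Rhcg, an ammonia channel, and Atp4a, a potassium-proton pump subunit, had log2 changes of -2.27 ± 0.34 and -3.18 ± 0.52 (adjusted p = 0.00127 and 0.00189). Insrr, a receptor that senses alkali, was at 14.3, 19.97 and 19.8 CPM in KO I/R 1 to 3, against 95.8, 114 and 353 CPM in KO sham 1 to 3, with a log2 change of -3.38 ± 0.48 (adjusted p = 0.000928), or -2.54 without KO sham 3. Kit, also an intercalated cell gene in kidney, had a log2 change of -2.05 ± 0.42 (adjusted p = 0.00584). Aqp2, the water channel of principal cells, named after its values were seen, was at 1612, 2393 and 1049.6 CPM in KO I/R 1 to 3, against 999, 886 and 1789 CPM in KO sham 1 to 3. These levels overlapped, with a log2 change of 0.46 ± 0.50 (adjusted p = 0.53, 95% interval -0.63 to 1.55). Aqp2 was the 1 tested gene of the list with a change above 0, and 17 were below 0. Its level therefore does not describe the other genes of the list.

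Among 19 loop of Henle and distal tubule genes tested, 5 fell and 3 rose, and all 8 calls were kept. The shares were 26.3% and 15.8%, against 11.5% and 11.9% over all genes. Klhl3, the adaptor by which a ubiquitin ligase removes WNK kinases, was at 19.3, 12.99 and 27 CPM in KO I/R 1 to 3, against 250.2, 179 and 259 CPM in KO sham 1 to 3, with a log2 change of -3.53 ± 0.33 (adjusted p = 0.000117). Slc8a1, the sodium-calcium exchanger of the distal convoluted and connecting tubule, had a log2 change of -2.69 ± 0.35 (adjusted p = 0.000617). Ppp1r1b, an inhibitor of protein phosphatase 1, and Sim2, a transcription factor, had log2 changes of -2.86 ± 0.42 and -1.66 ± 0.28 (adjusted p = 0.00119 and 0.00228). The 3 that rose were Cldn14, Cldn3 and Wfdc2. Cldn14, a tight junction protein that limits calcium uptake in the thick limb, was at 15.2, 23.6 and 19.6 CPM in KO I/R 1 to 3, against 3.07, 0.774 and 1.07 CPM in KO sham 1 to 3, and rose by 3.50 ± 0.57 (adjusted p = 0.00197), or by 4.38 without KO sham 1. Cldn3, a sealing claudin, rose by 1.95 ± 0.38 (adjusted p = 0.00464). Umod, uromodulin, the main product of the thick limb, named after its values were seen, was at 8338, 6786 and 5414 CPM in KO I/R 1 to 3, against 9590.2, 7022 and 6678 CPM in KO sham 1 to 3, and its groups overlapped (log2 change -0.18 ± 0.28, adjusted p = 0.672).

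**Figure D3:**
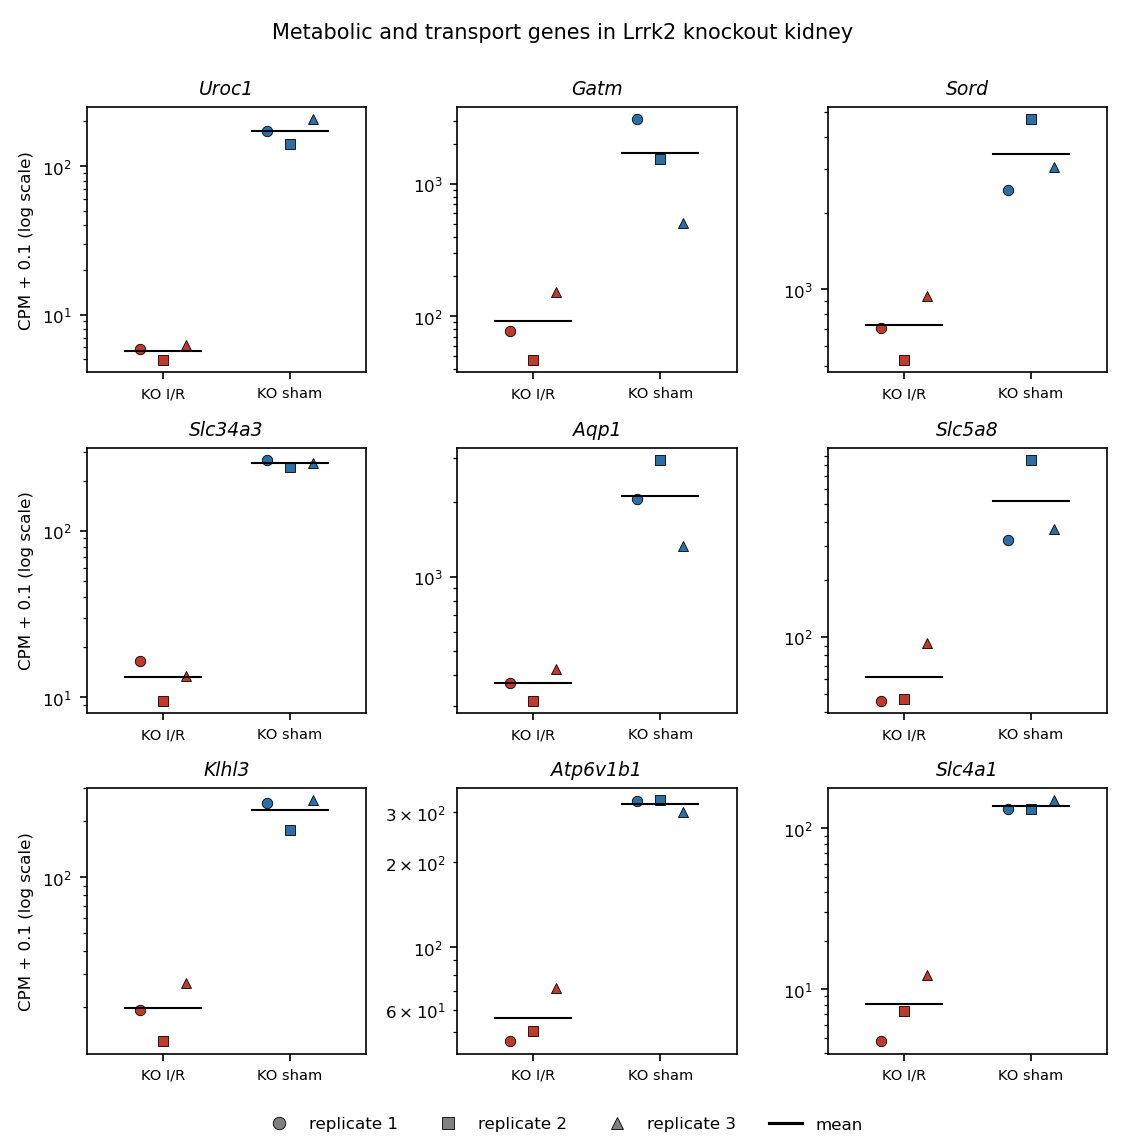
CPM plus 0.1 on a log axis in the 3 KO I/R and 3 KO sham libraries for 9 metabolic and transport genes; marks show the replicate and the line is the group mean. In each panel all KO I/R libraries lie below all KO sham libraries. The rule for the largest falls, which named Uroc1, Gatm and Slc34a3, required this separation. Gatm has its highest value in KO sham 1.

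Many cytoskeletal genes rose. The list covers actin, tubulin, their regulators and some genes of the YAP and SRF pathways; of 20 tested, 12 rose, among them the YAP target Ankrd1, 0 fell and 8 did not pass, 10 rises were kept, and the median was 1.37. Tubulins led: Tuba1c was at 2742, 2429 and 2083 CPM in KO I/R 1 to 3, against 364, 274 and 262 CPM in KO sham 1 to 3, and Tubb2a at 1547, 1029.7 and 1245 CPM in KO I/R 1 to 3, against 152, 72.2 and 88.3 CPM in KO sham 1 to 3. Both were separated in every library and rose by 3.01 ± 0.27 and 3.61 ± 0.35 (adjusted p = 8.84e-05 and 0.000124). Tubb4b, Tuba1b and Tubb2b rose by 2.20 ± 0.26, 2.46 ± 0.30 and 3.48 ± 0.46 (adjusted p = 0.000376, 0.000416 and 0.000597). Actg1, cytoplasmic gamma actin, was at 4745, 6313 and 4029.8 CPM in KO I/R 1 to 3, against 814, 744 and 1142 CPM in KO sham 1 to 3, and rose by 2.48 ± 0.37 (adjusted p = 0.00119). Tubulins and actins have close relatives, so reads may be split between them. Summed CPM over the 20 genes was 20447 to 25966 in KO I/R and 6847 to 8025 in KO sham. Of 16 adhesion and tight junction genes, 4 rose and 1 fell, with 3 rises kept. The shares were 25.0% and 6.25%, against 11.9% and 11.5% over all genes. Itga3, the integrin that binds laminin in the tubule, Cldn7, a claudin, and Gja4, a gap junction protein, rose by 1.32 ± 0.26, 1.73 ± 0.38 and 1.47 ± 0.33 (adjusted p = 0.00461, 0.00796 and 0.00887).

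Part of the genes that make and degrade proteins rose. Of 38 ribosomal protein and translation genes tested, 20 rose, 0 fell and 18 did not pass, at a median of 1.14, and 13 calls were kept. Without KO sham 1 or without KO sham 2, 13 rose. Rplp0, a protein of the ribosomal stalk, was at 4259, 11275 and 3612 CPM in KO I/R 1 to 3, against 1566, 1519.8 and 1408 CPM in KO sham 1 to 3, and rose by 2.09 ± 0.41 (adjusted p = 0.00442). KO I/R 2 was far above the other I/R libraries, and without it the change was 1.40. The same library had the highest summed CPM of the list, 83935 against 39902 in the lowest KO I/R library and 24932 to 28445 in KO sham. With whole reads worked out from its FPKM values in place of its counts, the list median was 0.83. Eif4a1, the helicase of translation initiation, and Ncl, nucleolin, rose by 1.75 ± 0.36 and 1.11 ± 0.24 (adjusted p = 0.00615 and 0.00755). Of 22 proteasome and ubiquitin genes, 10 rose, 0 fell and 12 did not pass, 9 calls were kept, and the median was 0.88; without KO sham 3, 17 rose. Psmd10 and Psmd11, subunits or partners of the proteasome's regulatory particle, rose by 1.20 ± 0.20 and 1.27 ± 0.24 (adjusted p = 0.00199 and 0.00367). Uchl3, a ubiquitin hydrolase, was at 153, 161 and 138 CPM in KO I/R 1 to 3, against 41.8, 50.9 and 57.7 CPM in KO sham 1 to 3, and rose by 1.59 ± 0.20 (adjusted p = 0.000426).

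Of 18 chaperone genes tested, 3 rose and 1 fell, all 4 kept, and 5 rose without KO I/R 2 and KO sham 3. With all libraries the shares were 16.7% and 5.56%, against 11.9% and 11.5% over all genes. Bag2, a cochaperone of Hsc70, was at 241, 291 and 260.0 CPM in KO I/R 1 to 3, against 77.9, 42.4 and 22.8 CPM in KO sham 1 to 3, and rose by 2.46 ± 0.35 (adjusted p = 0.000986). Cct5, a subunit of the chaperonin that folds actin and tubulin, was at 963, 1623 and 849.6 CPM in KO I/R 1 to 3, against 402, 422 and 345 CPM in KO sham 1 to 3, and rose by 1.56 ± 0.28 (adjusted p = 0.00283). Hspa12a fell, with a log2 change of -1.50 ± 0.21 (adjusted p = 0.000891). Of 17 genes of endoplasmic reticulum stress and the integrated stress response, 2 rose and 1 fell, shares of 11.8% and 5.88% against 11.9% and 11.5% over all genes, and the fall alone was kept: Herpud1, part of the machinery that clears misfolded proteins, was at 314, 150.1 and 512 CPM in KO I/R 1 to 3, against 1133, 1614 and 932 CPM in KO sham 1 to 3, with a log2 change of -1.91 ± 0.42 (adjusted p = 0.00759). Among 46 cell cycle genes, 9 rose and 1 fell, with 5 rises kept and 5 rises without KO sham 2. With all libraries the shares were 19.6% and 2.17%, against the same 11.9% and 11.5%. Cks1b, a cofactor of cyclin-dependent kinases, was at 31.5, 34.4 and 34.7 CPM in KO I/R 1 to 3, against 9.36, 6.58 and 10.2 CPM in KO sham 1 to 3, and rose by 1.94 ± 0.32 (adjusted p = 0.00197). Rfc3 and Rpa2, proteins of DNA replication, rose by 1.38 ± 0.27 and 1.18 ± 0.26 (adjusted p = 0.00454 and 0.00839). Of 6 p53 pathway genes, 2 rose, with both calls kept, though 1 rose without KO I/R 1, KO I/R 3, KO sham 1 or KO sham 2. With all libraries the rises were 33.3% of the list, against 11.9% over all genes. Gadd45a, a growth arrest gene of that list, was at 287, 194 and 250.2 CPM in KO I/R 1 to 3, against 93.3, 75.6 and 94.2 CPM in KO sham 1 to 3, and rose by 1.48 ± 0.29 (adjusted p = 0.00477).

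Redox genes rose in part. Of 15 NRF2 and redox genes tested, 5 rose and 0 fell, and all 5 calls were kept. The rises were 33.3% of the list, against 11.9% over all genes. G6pdx, the first enzyme of the pentose phosphate pathway, was at 414, 511 and 359.7 CPM in KO I/R 1 to 3, against 127, 116 and 88.5 CPM in KO sham 1 to 3, and rose by 1.95 ± 0.23 (adjusted p = 0.000376). Mgst1 and Gstp1, glutathione transferases, rose by 1.89 ± 0.30 and 2.02 ± 0.33 (adjusted p = 0.00157 and 0.00206). Gsta1, another glutathione transferase with close relatives, was at 337, 504 and 271 CPM in KO I/R 1 to 3, against 69.9, 27.7 and 8.05 CPM in KO sham 1 to 3, and rose by 3.39 ± 0.64 (adjusted p = 0.00389), or by 4.36 without KO sham 1. Ftl1, ferritin light chain, rose by 1.43 ± 0.36 (adjusted p = 0.0155). Gpx3, the secreted glutathione peroxidase, took 7.89%, 1.71% and 2.51% of all counts in KO I/R 1 to 3 and 9.33%, 7.38% and 0.271% in KO sham 1 to 3, and its groups overlapped. With the whole reads worked out from its FPKM values, the share in KO I/R 2 was 10.4% in place of 1.71%.

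Lipid genes moved in both directions, as did the tested genes in general. Of 42 genes of fatty acid oxidation and the peroxisome, 9 rose and 2 fell, with 7 and 2 calls kept, and the median of -0.08 was that of all genes. The shares were 21.4% and 4.76%, against 11.9% and 11.5% over all genes. Acot9, a mitochondrial thioesterase, was at 391, 483 and 312 CPM in KO I/R 1 to 3, against 112, 137 and 97.4 CPM in KO sham 1 to 3, and rose by 1.78 ± 0.23 (adjusted p = 0.00054). Acaa1b, a peroxisomal thiolase with a near-identical relative, was at 3802, 5877 and 5230.3 CPM in KO I/R 1 to 3, against 1199, 1641 and 1622 CPM in KO sham 1 to 3, and rose by 1.74 ± 0.31 (adjusted p = 0.00265). Acadm, the medium-chain dehydrogenase of mitochondrial beta oxidation, was at 711, 732 and 869.9 CPM in KO I/R 1 to 3, against 2799.7, 3042 and 1086 CPM in KO sham 1 to 3, with a log2 change of -1.58 ± 0.35 (adjusted p = 0.00776). Acad12, another acyl-CoA dehydrogenase, had a log2 change of -1.81 ± 0.32 (adjusted p = 0.00262). Of 15 genes of cholesterol and lipid synthesis, 3 fell and 2 rose, and the falls were kept. Rises were 13.3% of this list, near the 11.9% over all genes. The share of falls, 3 of 15, was above the 11.5% over all genes. Cyp51, the sterol demethylase, was at 75.2, 66.2 and 98.6 CPM in KO I/R 1 to 3, against 616, 882 and 386 CPM in KO sham 1 to 3, with a log2 change of -2.97 ± 0.30 (adjusted p = 0.000148). Lpl, lipoprotein lipase, had a log2 change of -1.98 ± 0.43 (adjusted p = 0.00757). In the respiratory chain and citric acid cycle, 3 of 37 genes fell and 0 rose, 8.11% falls against 11.5% over all genes, and 1 fall was kept (1 fell without KO I/R 1, KO I/R 2 or KO sham 2, and 7 without KO I/R 2 and KO sham 3). The kept fall was that of Idh2, mitochondrial isocitrate dehydrogenase, at 511, 312 and 454 CPM in KO I/R 1 to 3, against 1078, 1359 and 998 CPM in KO sham 1 to 3 (log2 change -1.43 ± 0.24, adjusted p = 0.00213). Of 34 drug and xenobiotic enzymes, 7 fell and 3 rose, with 4 and 2 calls kept. The shares were 20.6% and 8.82%, against 11.5% and 11.9% over all genes. Without KO I/R 1, KO I/R 3 or KO sham 2, 4 fell, and without KO sham 1, 11 fell and 5 rose. Ugt1a6a, a glucuronosyltransferase, was at 45.5, 50.8 and 74.8 CPM in KO I/R 1 to 3, against 146, 1096 and 723 CPM in KO sham 1 to 3, with a log2 change of -3.52 ± 0.61 (adjusted p = 0.00258), or -2.92 without KO sham 2.

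Some inflammatory genes rose. Of 18 cytokines, chemokines and receptors tested, 6 rose and 1 fell, and 2 rises were kept, those of Csf1 and Cxcl2. The shares were 33.3% and 5.56%, against 11.9% and 11.5% over all genes. Without KO I/R 2, 3 rose, and without KO sham 2, 2 rose. Csf1, the growth factor of macrophages, was at 85.7, 125 and 107 CPM in KO I/R 1 to 3, against 51.1, 28.2 and 50.7 CPM in KO sham 1 to 3, and rose by 1.29 ± 0.28 (adjusted p = 0.00757). Cxcl2, which draws neutrophils, had 121, 28 and 43 counts in KO I/R 1 to 3 and 11, 0 and 0 in KO sham 1 to 3 (adjusted p = 0.00876). All of its sham counts were in KO sham 1. Il1f6, which encodes interleukin 36 alpha, had 28, 92 and 38 counts in KO I/R 1 to 3 and 4, 0 and 0 in KO sham 1 to 3 (adjusted p = 0.00511). Dusp10, a phosphatase that acts on stress kinases, was the gene that rose among 9 immediate early and AP-1 genes, by 2.56 ± 0.45 (adjusted p = 0.00255). It makes 11.1% of that list, near the 11.9% of rises over all genes.

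Markers of leukocytes went in both directions. Of 26 neutrophil markers listed, 10 were in the table and 5 were tested. Of these 5, 4 rose and 0 fell, with 3 calls kept. The rises were 80.0% of those tested, against 11.9% over all genes. A marker with few counts passes the filter only through libraries where it is high. The direction of such markers is therefore partly set by the filter. Trem1, a receptor of neutrophils and monocytes, had 16, 14 and 11 counts in KO I/R 1 to 3 and 0, 2 and 0 in KO sham 1 to 3 (adjusted p = 0.01). Mmp8, neutrophil collagenase, had 35, 20 and 14 counts in KO I/R 1 to 3 and 0, 0 and 3 in KO sham 1 to 3 (adjusted p = 0.0129). The list also holds Lcn2, which tubules make too and which gives nearly all of its sum. Of 12 monocyte and macrophage markers, 1 rose and 3 fell, and all 4 calls were kept, though 1 fell without KO sham 1. With all libraries the shares were 8.33% and 25.0%, against 11.9% and 11.5% over all genes. Itgam, the integrin CD11b of neutrophils and monocytes, was at 19.8, 6.01 and 22.3 CPM in KO I/R 1 to 3, against 2.1, 0.967 and 1.34 CPM in KO sham 1 to 3, and rose by 3.41 ± 0.60 (adjusted p = 0.00265). Csf1r, the receptor of Csf1 on resident macrophages, was at 42.6, 97.4 and 54.7 CPM in KO I/R 1 to 3, against 177, 204 and 279 CPM in KO sham 1 to 3, with a log2 change of -1.76 ± 0.31 (adjusted p = 0.00266). Of 37 T and NK cell markers listed, 10 were in the table and 4 were tested. Of these 4, 3 fell and 0 rose, with all 3 calls kept and the same limit from the filter. The falls were 75.0% of those tested, against 11.5% over all genes. Cd4 lost its call without KO sham 1, and Il2rb lost its call without KO I/R 1 or KO I/R 3. Cd8a had 0, 3 and 2 counts in KO I/R 1 to 3 and 32, 11 and 37 in KO sham 1 to 3 (adjusted p = 0.00606). Of 5 B and plasma cell markers, 3 fell and 0 rose, and none of those calls was kept (1 fell without KO I/R 3 or KO sham 1). With all libraries the falls were 60.0% of those tested, against 11.5% over all genes. The 2 immunoglobulin kappa variable genes among the largest falls were Igkv1-110 and Igkv8-30. Igkv1-110 had 4, 3 and 3 counts in KO I/R 1 to 3 and 120, 36 and 34 in KO sham 1 to 3 (adjusted p = 0.00762). Of 35 endothelial markers listed 6 were tested, and none of these 6 passed the test in either direction. Their summed CPM was 343.5 to 476.4 in KO I/R and 408.6 to 515.5 in KO sham. Of 7 fibroblast and pericyte markers, 1 rose and 1 fell, 14.3% each and near the shares over all genes, and neither call was kept.

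Genes of interferon response and antigen presentation fell in part. Of 24 tested, 6 fell and 2 rose, with 4 falls and 1 rise kept. The shares were 25.0% and 8.33%, against 11.5% and 11.9% over all genes. Tgtp1, an interferon-induced GTPase, was at 3.7, 8.42 and 6.65 CPM in KO I/R 1 to 3, against 49, 58.8 and 71.1 CPM in KO sham 1 to 3, with a log2 change of -3.26 ± 0.39 (adjusted p = 0.000376). H2-Q7 and H2-T23, class I histocompatibility genes with close relatives, had log2 changes of -1.34 ± 0.29 and -1.12 ± 0.25 (adjusted p = 0.00775 and 0.00835). Nlrc5, which switches on class I genes, had a log2 change of -1.78 ± 0.44 (adjusted p = 0.013), and an adjusted p of 0.0518 without KO I/R 1. The Nlrc5 call was not among those kept. Leukocyte markers that fell, given above, moved with these genes, and their part in the result was not tested.

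Matrix and growth factor genes fell in part. Of 34 genes of extracellular matrix and its proteases, 10 fell and 4 rose, with 5 and 2 calls kept. The shares were 29.4% and 11.8%, against 11.5% and 11.9% over all genes. Without KO I/R 1, 5 fell; without KO I/R 2, 2 rose, and without KO sham 2, 0 rose. Col14a1, a fibril-associated collagen, was at 5.55, 8.42 and 8.68 CPM in KO I/R 1 to 3, against 54.4, 88 and 127 CPM in KO sham 1 to 3, with a log2 change of -3.57 ± 0.45 (adjusted p = 0.000484). Fmod, fibromodulin, Ltbp4, which stores latent TGF-beta, and Lama3, a laminin chain, had log2 changes of -3.29 ± 0.58, -1.64 ± 0.32 and -1.55 ± 0.33 (adjusted p = 0.00273, 0.00477 and 0.00694). Tnc, tenascin C, a matrix protein of wounds, was at 159.6, 97.7 and 147 CPM in KO I/R 1 to 3, against 64.9, 30.4 and 14.5 CPM in KO sham 1 to 3, and rose by 1.87 ± 0.48 (adjusted p = 0.0158). Without KO sham 2 its adjusted p was 0.0585, and without KO sham 1 its change was 2.58. Of 31 growth factors and receptors, 7 fell and 1 rose, with 3 and 1 calls kept (3 fell without KO I/R 1, KO I/R 2 or KO sham 1, and 4 without KO sham 2). With all libraries these were 22.6% and 3.23% of the list, against 11.5% and 11.9% over all genes. Sfrp1, a secreted inhibitor of Wnt, was at 45.5, 51.5 and 44.5 CPM in KO I/R 1 to 3, against 487, 330.5 and 196 CPM in KO sham 1 to 3, with a log2 change of -2.84 ± 0.33 (adjusted p = 0.000295). Dkk2, another secreted Wnt modulator, and Axin2, a Wnt target, had log2 changes of -1.64 ± 0.31 and -2.39 ± 0.56 (adjusted p = 0.00357 and 0.01). Fstl3, which binds activin, rose by 1.89 ± 0.35 (adjusted p = 0.00351).

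Of 23 Lrrk2 partners and Rab GTPases tested, 3 rose and 1 fell, shares of 13.04% and 4.35% against 11.9% and 11.5% over all genes. Without KO I/R 1 or KO sham 2, 1 rose, and 1 call was kept. It was that of Sfn, 14-3-3 sigma, at 373, 662 and 292 CPM in KO I/R 1 to 3, against 90.5, 23.2 and 22.5 CPM in KO sham 1 to 3, which rose by 3.28 ± 0.54 (adjusted p = 0.00205), or by 4.27 without KO sham 1. Of 27 lysosome and autophagy genes, 4 fell and 1 rose, shares of 14.8% and 3.70% against 11.5% and 11.9% over all genes, with 2 and 1 calls kept, and 2 fell without KO I/R 1. Mcoln3, a cation channel of endosomes and lysosomes, was at 5.92, 4.57 and 4.8 CPM in KO I/R 1 to 3, against 30.5, 29.8 and 70.0 CPM in KO sham 1 to 3, with a log2 change of -3.08 ± 0.42 (adjusted p = 0.000811). Scarb2, the lysosomal receptor of glucocerebrosidase, was at 371, 400.3 and 395 CPM in KO I/R 1 to 3, against 197, 165 and 83.4 CPM in KO sham 1 to 3, and rose by 1.39 ± 0.27 (adjusted p = 0.0045).

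**Figure D4:**
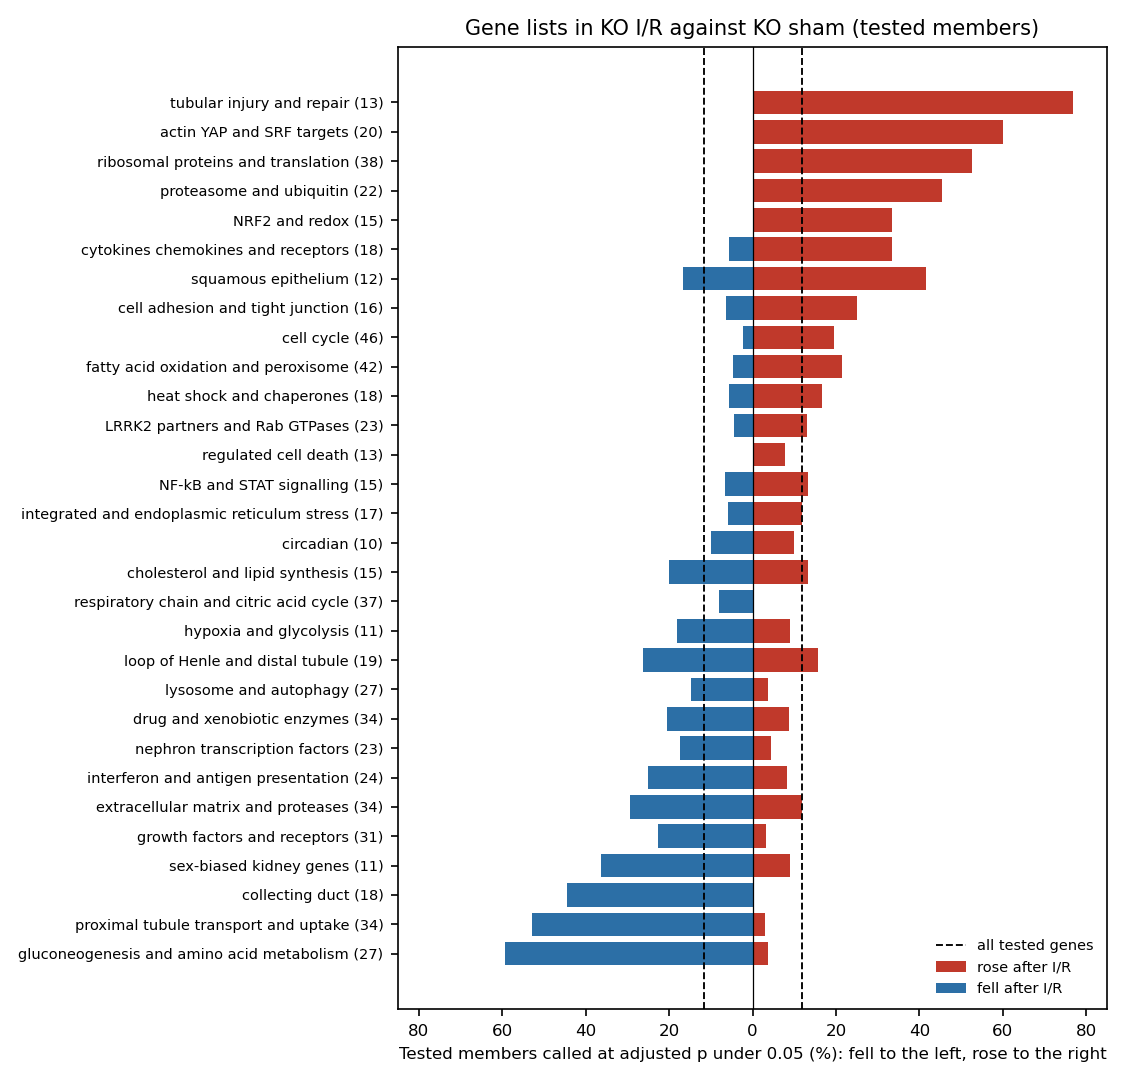
Percent of the tested members of 30 gene lists that rose (red, to the right) or fell (blue, to the left) in KO I/R against KO sham at an adjusted p under 0.05, with the number tested in brackets; dashed lines mark 11.9% and 11.5% over all genes. Tubular injury, cytoskeleton, translation and proteasome lists lie at the top, and collecting duct, proximal tubule and amino acid metabolism lists at the bottom.

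By gene type, 497 of 4165 protein coding genes rose and 508 fell. Among 355 processed pseudogenes 70 rose and 5 fell, with 33 and 1 calls kept. Their reads may come from the parent genes, several of which encode ribosomal proteins and tubulins. Among 129 lincRNA genes 10 rose and 30 fell, with 6 and 15 calls kept, and among 134 antisense genes 7 rose and 14 fell. Calls in either direction were 31.0% of lincRNA and 15.7% of antisense genes, against 23.5% over all genes. Strand use is not stated, so reads of antisense genes and of their partners cannot be told apart.

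The wild-type response, which shares no library with the knockout one, gave 517 rises and 540 falls in the same fit, 20.9% of the genes tested. Both responses were called for 705 genes, 59.5% of the knockout calls and 66.7% of the wild-type ones. All but 2 of these had the same direction, and the 2 were Gm42031 and Gm43305, which fell in knockout and rose in wild-type kidney. The difference between the responses, tested as the interaction of genotype and I/R with edgeR's quasi-likelihood test, was called for 0 genes. At an unadjusted p under 0.05 it held for 265 genes, 5.25% of those tested, and the smallest adjusted p was 0.249. DESeq2 called 13 genes (Acaa1b, Col5a1, Cygb, Cyp4a31, Farsb, Gm15441, Gm42031, Gm43305, Gm49980, Pdgfrb, Reep6, Ugt1a6a and Vnn1). Without a filter on low counts edgeR called 3, namely Gm15441, Gm42031 and Gm43305, and without KO sham 1 it called 2, Cyp4a14 and Ugt1a6a. No response is therefore described as particular to the knockout.

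Among the 10 genes of smallest interaction p, Gm15441 was at 234, 264 and 286 CPM in KO I/R 1 to 3, against 11.5, 27.9 and 35.9 CPM in KO sham 1 to 3, and at 56.9 to 167 CPM in WT I/R and 74.2 to 214 CPM in WT sham. Its log2 change was 3.39 ± 0.53 in knockout and -0.53 ± 0.48 in wild-type kidney, with an adjusted p of 0.249 for the difference. Acaa1b, given above, had 1.74 ± 0.31 in knockout and -0.43 ± 0.30 in wild-type kidney (adjusted p = 0.26 for the difference). Farsb, a subunit of phenylalanine tRNA synthetase, had 1.74 ± 0.26 and 0.18 ± 0.25 in the same order, and Cygb, cytoglobin of fibroblast-like cells, -1.83 ± 0.33 and 0.35 ± 0.32 (adjusted p = 0.442 and 0.345 for the difference). In each of these 4 genes the KO sham libraries lay outside the range of the WT sham libraries. Pdgfrb, the receptor that marks pericytes and fibroblasts, and Col5a1, a fibrillar collagen, had -0.16 ± 0.25 and -0.27 ± 0.32 in knockout and 1.40 ± 0.25 and 1.70 ± 0.33 in wild-type kidney (adjusted p = 0.442 and 0.442 for the difference). None of these differences passed the test.

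**Figure D5:**
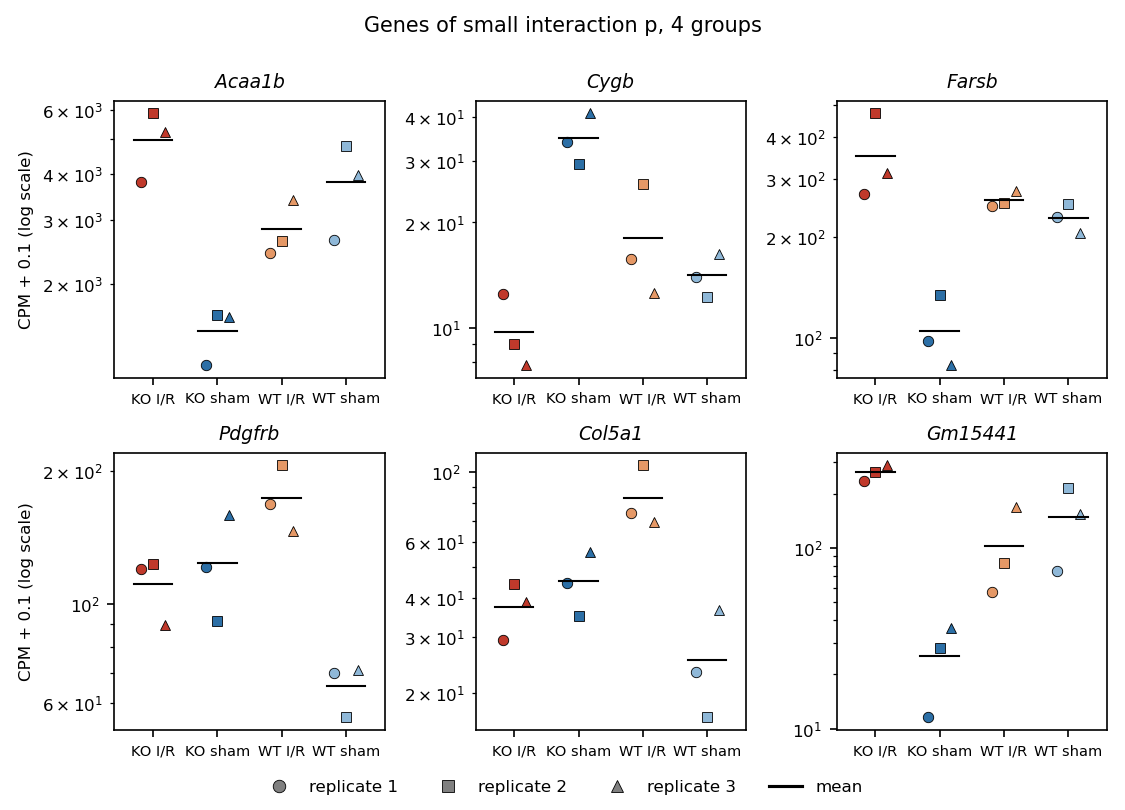
CPM plus 0.1 on a log axis in 4 groups of 3 libraries for 6 of the 10 genes of smallest interaction p; marks show the replicate and the line is the group mean. Acaa1b, Farsb and Gm15441 are lower and Cygb is higher in all KO sham than in all WT sham libraries, while Pdgfrb and Col5a1 are higher in all WT I/R than in all WT sham libraries.

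The KO I/R libraries differed among themselves most in a few genes that 1 library lacked. Nnt, the mitochondrial transhydrogenase, was at 84.8, 0 and 218 CPM in KO I/R 1 to 3, against 411, 542 and 0 CPM in KO sham 1 to 3. Whole reads worked out from the FPKM values of KO I/R 2 put it at 605 counts there in place of 0. Tef, a clock-related transcription factor, was at 258, 6.74 and 486 CPM in KO I/R 1 to 3, against 590.2, 1305 and 379 CPM in KO sham 1 to 3, and Fmo2, a flavin monooxygenase, at 204, 2.41 and 263 CPM in KO I/R 1 to 3, against 617, 898 and 945 CPM in KO sham 1 to 3, with KO I/R 2 far below the other I/R libraries for both. Tmem127, a membrane protein of endosomes, was at 17, 219 and 307 CPM in KO I/R 1 to 3, against 45.5, 41.2 and 262 CPM in KO sham 1 to 3, with KO I/R 1 the low library. These genes did not pass the test, and their levels describe single libraries.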

How the data were processed

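RNA of 12 kidney libraries was measured, 6 of them knockout (KO I/R and KO sham, 3 each). For each library the authors deposited a column of whole-number counts and a column of FPKM (fragments scaled to transcript length and library size), per the file headers. HISAT2 and StringTie are named, per the submitters' processing notes, and libraries were paired-end TruSeq RNA, per the labels' protocols. The sources used here do not give versions, genome build, counting rules or strand use; 98.7% of loci equal those of GENCODE M21 (GRCm38). The table used here has 16383 genes, 6440 of them protein coding, and no column was left unmapped.

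Counts were tested with edgeR 4.0.16 (R 4.3.3): filterByExpr (count of 10, total of 15), TMM factors, 1 quasi-likelihood model of the 4 groups, contrasts KO I/R minus KO sham and the interaction, and Benjamini-Hochberg adjustment over 5048 genes at 0.05. SE is the log2 change divided by the root of F, and CPM is the count scaled to TMM library size. The common biological coefficient of variation was 0.375. Folds against a group at 0 use a floor of 3 counts. Floors and intervals on counts cover counting error only. The fit was tested on simulated data. The FPKM column of KO I/R 2 was turned back into whole reads from the scale of the other libraries; 100% of values under 1000 came within 0.01 of a whole number, and 116 genes without a scale were set to 0.

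Members of the comparison, gene lists and markers were chosen with earlier results of these data known. Genes named are the 15 largest kept rises and 15 largest kept falls with non-overlapping libraries, a group mean of 5 CPM or more and no predicted symbol; up to 6 called members per list; the 10 smallest interaction p; the 8 widest spreads in KO I/R; and Lrrk2, Havcr1, Lcn2 and Gpx3. Others are said to be named after their values were seen, and the text prints part of these. Alternatives were RLE and upper-quartile factors, whole-library totals, 2 other filters (none; 5 CPM in 3 libraries), a robust spread, limma 3.58.1 (voom weights; log2 of FPKM plus 0.1), DESeq2 1.42.0, only the knockout libraries, the replicate block, a log2 threshold of 1, each library left out, the recovered reads, and mitochondrial genes left out. Reads of near-identical genes may be split by the counting.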

Additional observations from a re-analysis of the deposited data

How the results depend on the processing

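No alternative turned a called gene to the opposite call. The 603 rises and 582 falls became 183 and 181 with only the 6 knockout libraries in the fit, 116 and 119 when tested against a log2 change of 1, and 937 and 881 with recovered reads for KO I/R 2 and without KO sham 3. Leaving out 1 library at a time gave 431 to 726 rises and 359 to 641 falls, and the lowest count of falls was without KO I/R 1. In all 29 alternatives other than the fold threshold, 168 rises and 154 falls remained called. The cause of these shifts was not tested, apart from the fewer libraries or the stricter threshold that 2 of them contain.

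The 0 interaction calls became 0 to 2 when 1 library was left out (Rps2-ps10 without WT I/R 1, Gm42031 without WT sham 1, Cyp4a14 and Ugt1a6a without KO sham 1). They became 3 with no filter on low counts, 13 with DESeq2, and 4 with recovered reads and without KO sham 1 (Cyp4a14, Gm49980, Socs6 and Ugt1a6a). Replicate numbers did not pair the libraries: same-numbered deviations correlated at 0.246, -0.248 and -0.370, and with the replicate block 575 genes rose and 559 fell.

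Of the genes with a printed fold change, 22 of 115 lost their call with only the 6 knockout libraries and 41 of 116 with the fold threshold, among 69 lost calls over all alternatives. Over the 116 genes 8 values turned sign, all of genes that did not pass the test. Pdgfrb was at 0.0787 with whole-library totals, 0.0487 with voom weights, 0.00805 without KO I/R 2 and KO sham 3, 0.14 with recovered reads and without KO sham 3, 0.0783 with limma on FPKM, and -0.334 to 0.0597 with 1 library left out. Umod was at 0.0454 with recovered reads and without KO sham 1, and at -0.345 to 0.00093 with 1 library left out. Whole-library totals could be inferred for the recovered reads of KO I/R 2 and not for its count column, so the version with the count column was not run. The version with recovered reads, chosen after seeing the data like the one that leaves out 4 nuclear copies of mitochondrial genes, put the median of all genes at 0.03 against -0.08, and limma on FPKM put it at 0.11. With 3 libraries a group, most calls were large changes: 485 of the rises and 509 of the falls were of at least 2-fold.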

Other observations

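KO I/R 2 and KO sham 3 deviated from their groups in a related way. Over 5048 genes the deviations of these 2 libraries from their group means correlated at 0.430, against -0.370 to 0.284 for the other 8 pairs of a KO I/R and a KO sham library. This is a description, since genes are not independent and the 3 deviations of a group sum to 0. Nnt was at 0 counts in the count column of KO I/R 2 and in KO sham 3, and at 458 and 1180 counts in KO I/R 1 and 3 and 2546 and 2802 in KO sham 1 and 2. Septin2 was at 0 CPM in the same 2 libraries and at 230.1 and 337 CPM in KO I/R 1 and 3, and Rsc1a1 was at 0.722 CPM in KO I/R 2 and 0.537 CPM in KO sham 3. The counts of KO I/R 2 were closer to the FPKM column of WT I/R 2 (median absolute log2 deviation 0.444 over genes) than to its own (0.489). What links these libraries was not tested.

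Kctd12 was at 0 CPM in KO I/R 1, 93.1 in KO I/R 2 and 109 in KO I/R 3, against 318, 169 and 117 CPM in KO sham 1 to 3. Ctnna2 and Unc13c, of cell adhesion and vesicle release, had no read in any KO I/R library. They were at 1.61, 15.3 and 6.71 CPM and at 9.52, 4.64 and 3.22 CPM in KO sham 1 to 3, so KO I/R was at least 39.3-fold and 28.9-fold lower with a floor of 3 counts over the group. For Ctnna2 that bound was 20.8-fold without KO sham 2 and 25.1-fold without KO I/R 1 or KO I/R 3, and for Unc13c it was 19.6-fold without KO sham 1 and 18.5-fold without KO I/R 1 or KO I/R 3.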
